A study of Homo sapiens with 12 samples.

Results

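The genes described here are the 10 that carry, deliver, use or buffer copper in the cell: the importer SLC31A1 and its relative SLC31A2, the exporting ATPases ATP7A and ATP7B, the chaperones ATOX1 and CCS, the copper enzyme SOD1, the transcription factor MTF1, and the metallothioneins MT2A and MT1X. They were chosen by function and matched by symbol to the Ensembl identifiers of the count tables. Each of the 10 symbols had 1 identifier among the 57773 genes in each table, and all 10 were among the 14714 genes tested after the filter on low counts.

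Copper is a cofactor of a small set of enzymes and is harmful when free, so cells hold almost all of it bound to protein. It enters through SLC31A1 at the plasma membrane, is handed from chaperone to client, and leaves through ATPases that also load copper enzymes in the secretory pathway. Metallothioneins are small, cysteine-rich proteins that bind zinc and copper, and their genes are switched on by MTF1, which binds metal response elements when zinc is high, including when copper displaces zinc from other proteins.

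RNA was measured in T47D cells, a luminal human breast cancer line, in which doxycycline switches on a short hairpin RNA that targets PSMD2, part of the 19S cap of the proteasome. Bortezomib is a drug that blocks the 20S catalytic core of the proteasome, and DMSO is its solvent. The 4 groups held 3 libraries each. Lo19S bortezomib cells had the hairpin switched on by doxycycline at 0.2 µg/ml over 3 days, then spent 24 h without doxycycline and 16 h in 20 nM bortezomib. Control bortezomib cells carried the same hairpin, uninduced, and received the same drug. Lo19S DMSO cells were induced in the same way and received DMSO for 16 h, and control DMSO cells were uninduced and received DMSO. All 4 groups share the T47D background and the integrated hairpin, and only the Lo19S groups had been given doxycycline, so effects of doxycycline and of the hairpin cannot be told apart. The series compares the 2 states with and without bortezomib.

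Library totals ran from 7376597 to 15003480 counts. PSMD2, the target of the hairpin, had levels of 541, 546 and 539.6 CPM in Lo19S bortezomib libraries, against 1509, 1510 and 1528 CPM in control bortezomib libraries. It had 183, 189 and 184 CPM in Lo19S DMSO libraries, against 408, 392 and 417 CPM in control DMSO libraries. CPM stands here for counts scaled to library size after TMM (trimmed mean of M-values) correction. The labels do not say whether a group's libraries are separate cultures, so the p-values cover the spread between libraries only, which may be technical. In control DMSO cells, replicate 3 differed from its partners by chi-square values of 3.64 and 3.99 per degree of freedom, beside 1.15 to 1.90 for every other pair of replicates. Where leaving it out moved the adjusted p of a copper gene across 0.05, that is stated. All 8 luminal breast markers were detected, with summed levels of 2845 to 2991 CPM in Lo19S bortezomib, 2879 to 2965 CPM in control bortezomib, 5494 to 5570 CPM in Lo19S DMSO and 6278 to 6379 CPM in control DMSO libraries. These sums hide opposite changes of single markers. Under bortezomib, 5 were higher and 2 lower in Lo19S than in control cells at an adjusted p below 0.05, beside 43.1% of all genes. GATA3 and PGR were among the higher, with log2 fold changes of 1.20 and 1.19. Bortezomib raised 2 and lowered 6 in each state, beside 77.5% of all genes changed in Lo19S and 81.4% in control cells. The 6 fibroblast markers summed to 44.1 to 47.1 CPM in Lo19S bortezomib, 63.5 to 69.7 CPM in control bortezomib, 33.0 to 33.8 CPM in Lo19S DMSO and 26.0 to 31.4 CPM in control DMSO libraries. Most of that was COL1A1, which rose with bortezomib by 0.52 on the log2 scale in Lo19S cells and by 1.24 in control cells. COL1A1 was lower in Lo19S than in control cells under bortezomib (log2 fold change -0.64). COL1A2, COL3A1, DCN and PDGFRB were almost absent, with 4, 20, 18 and 12 counts over the 12 libraries. LUM was higher in Lo19S than in control cells, by 1.27 under bortezomib and by 1.18 under DMSO. Summed markers reached at most 2.98 CPM for leukocytes and 0.378 CPM for endothelial cells. The part of the luminal and fibroblast markers in the results for the copper genes was not tested. In bulk RNA, fewer cells of a kind and less RNA per cell cannot be told apart.

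In control cells given bortezomib, 4 of the 10 copper genes rose (SLC31A1, CCS, SOD1 and MTF1) and 5 fell (ATP7A, ATP7B, ATOX1, MT2A and MT1X). A gene was called at a Benjamini-Hochberg adjusted p below 0.05 over all genes in edgeR's quasi-likelihood test. Of all genes tested, 81.4% were called in this comparison, 39.2% higher and 42.2% lower, so a share of 9 in 10 is near the background and is not a result about the copper genes. Their median log2 fold change was -0.13, beside -0.043 over all genes. In Lo19S cells given bortezomib, SLC31A1, CCS, SOD1 and MTF1 rose and ATP7B and MT2A fell, against a background of 77.5% called, 37.8% higher and 39.7% lower, with medians of 0.018 for the copper genes and -0.022 for all genes. Both comparisons are set out gene by gene in what follows, since the directions and sizes differ among the 10 genes.

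The Lo19S state by itself was accompanied by fewer calls. Under DMSO, ATP7A, ATOX1, CCS and SOD1 rose and MT2A fell in Lo19S cells relative to control cells, which is 5 of 10 beside 24.7% of all genes (11.7% higher and 13% lower). The median was -0.038 for the copper genes and -0.0043 for all genes. Under bortezomib, ATP7A, ATOX1 and CCS were higher and SLC31A1, SOD1 and MTF1 lower in Lo19S cells, which is 6 of 10 beside 43.1% of all genes (22% higher and 21.2% lower), with medians of 0.15 for the copper genes and 0.0044 for all genes. The bortezomib response itself differed between the states for 4 of the 10 genes, beside 27.8% of all genes (14.4% higher and 13.4% lower), with medians of 0.048 for the copper genes and 0.010 for all genes. The difference was positive for MT2A and negative for SLC31A1, SOD1 and MTF1. Only the SOD1 difference was called in every alternative analysis, and the other 3 calls were lost in several of them. With libraries scaled by their totals, the difference was called positive for MT2A, ATP7A (0.47, adjusted p = 0.0404) and ATOX1 (0.25, adjusted p = 0.0189) and negative for SOD1, and the SLC31A1 and MTF1 calls were lost. Comparisons that use the same group of libraries are not independent of each other.

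**Figure D1:**
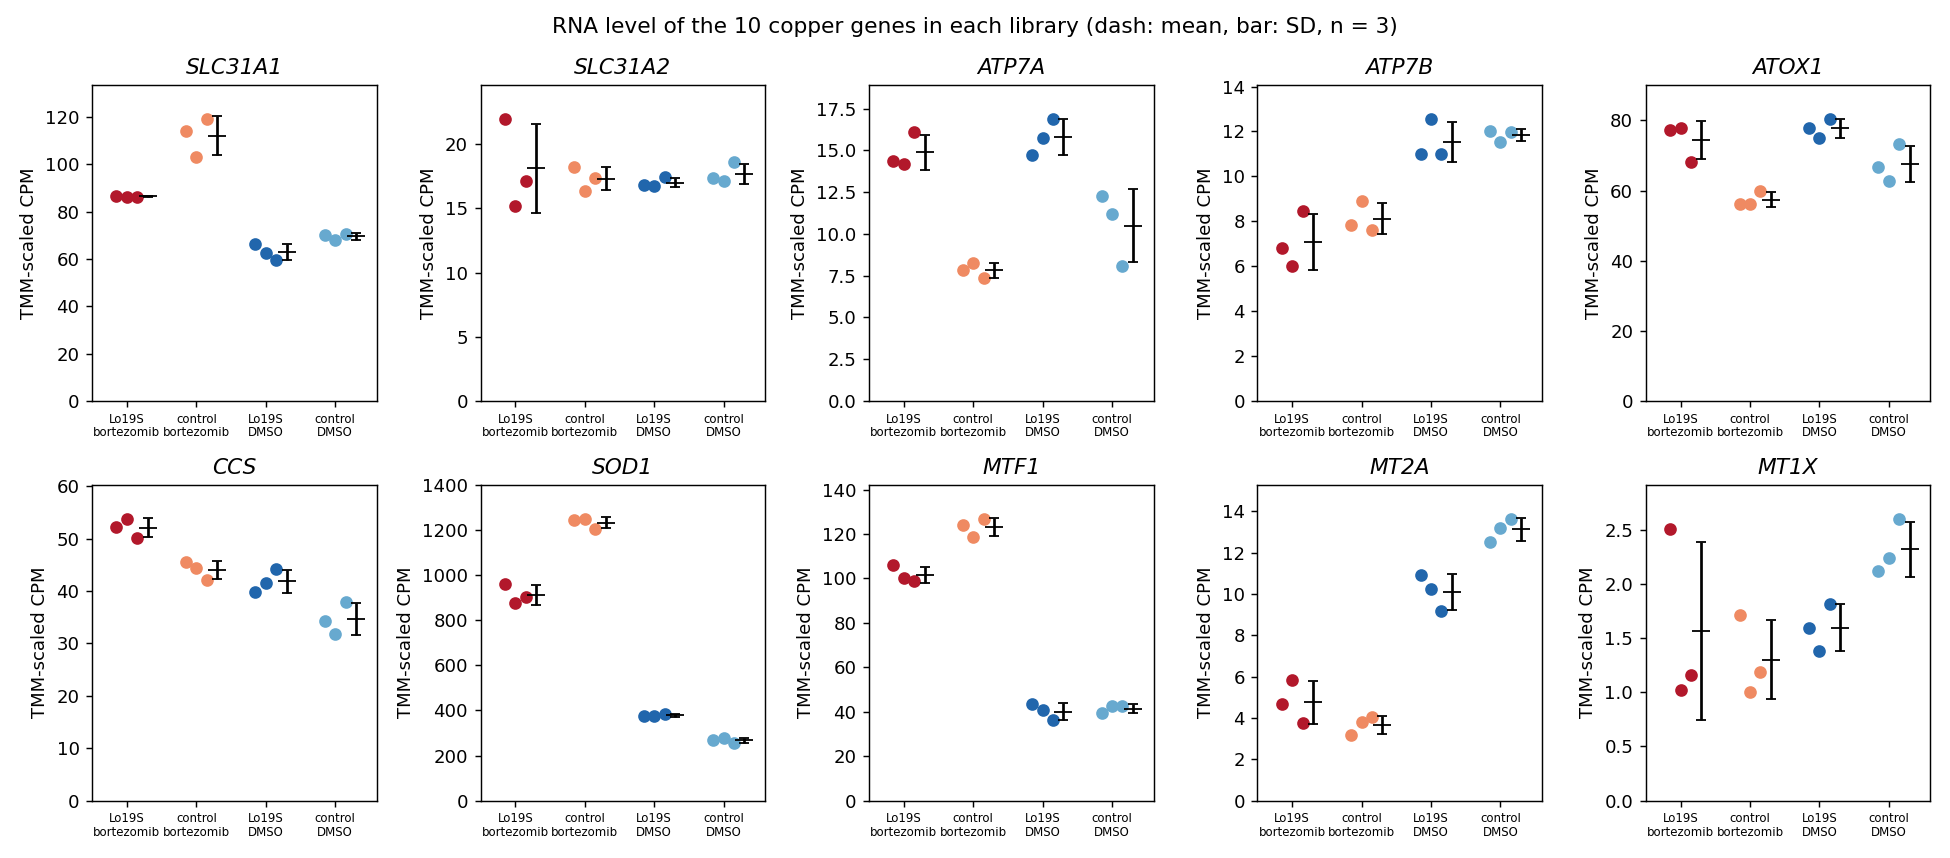
RNA level of each copper gene as TMM-scaled CPM (y axis, from 0) in the Lo19S bortezomib, control bortezomib, Lo19S DMSO and control DMSO groups (x axis). Points are libraries, the dash is the mean and the bar the SD over 3 libraries. SOD1 and MTF1 stood higher and MT2A lower in all 6 bortezomib libraries than in any DMSO library, and ATP7A was highest in the 2 Lo19S groups.

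SLC31A1 (ENSG00000136868), also called CTR1, encodes the high-affinity copper importer of the plasma membrane. Its level was 86.8, 86.3 and 86.2 CPM in Lo19S bortezomib libraries and 114, 103 and 119 CPM in control bortezomib libraries, against 66.4, 62.6 and 59.6 CPM in Lo19S DMSO and 70.3, 68.0 and 70.7 CPM in control DMSO libraries. The bortezomib libraries of each state lay above all DMSO libraries, and the Lo19S and control groups did not overlap under either agent. SLC31A1 rose with bortezomib by a log2 fold change of 0.69 ± 0.054 (SE) in control cells, which is 1.61-fold (adjusted p = 3.3e-16), and by 0.46 ± 0.056, or 1.37-fold, in Lo19S cells (adjusted p = 4.5e-10). It was lower in Lo19S than in control cells under bortezomib (log2 fold change -0.37 ± 0.054, adjusted p = 1.11e-07). Under DMSO the log2 fold change was -0.14 and just missed the threshold (adjusted p = 0.0508), and it passed with RLE size factors, without the filter on low counts and without any of 5 single libraries, control DMSO replicate 3 among them, at adjusted p of 0.0294 to 0.0491. The bortezomib response of SLC31A1 was smaller in Lo19S cells (difference of log2 fold changes -0.23 ± 0.077, adjusted p = 0.0213), a call that DESeq2 did not make (adjusted p = 0.0611) and that was lost when libraries were scaled by their totals (adjusted p = 0.186).

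SLC31A2 (ENSG00000136867), or CTR2, is a related protein of late endosomes and lysosomes. It had 22.0, 15.2 and 17.2 CPM in Lo19S bortezomib, 18.2, 16.4 and 17.4 CPM in control bortezomib, 16.8, 16.8 and 17.4 CPM in Lo19S DMSO, and 17.4, 17.1 and 18.6 CPM in control DMSO libraries. The groups overlapped, apart from a single high value in Lo19S bortezomib replicate 1, and none of the 5 comparisons called it. It was called lower with bortezomib in control cells when libraries were scaled by their totals (log2 fold change -0.41, adjusted p = 0.00033). The approximate 95% interval of its log2 fold change (from its SE) was -0.11 to 0.29 for bortezomib in Lo19S cells and -0.24 to 0.17 for bortezomib in control cells. It was -0.14 to 0.28 for Lo19S against control cells under bortezomib and -0.25 to 0.14 under DMSO.

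ATP7A (ENSG00000165240) encodes the copper ATPase that moves copper into the secretory pathway and out of most cell types, and is the gene mutated in Menkes disease. Its level was 14.3, 14.2 and 16.1 CPM in Lo19S bortezomib libraries and 7.82, 8.24 and 7.38 CPM in control bortezomib libraries. In the DMSO groups it was 14.7, 15.7 and 16.9 CPM in Lo19S cells and 12.2, 11.2 and 8.08 CPM in control cells. Every Lo19S library lay above every control library, whatever the agent. ATP7A was 1.92-fold higher in Lo19S than in control cells under bortezomib (log2 fold change 0.94 ± 0.135, adjusted p = 1.06e-07) and 1.48-fold higher under DMSO (0.57 ± 0.114, adjusted p = 0.00013). Without the outlying control DMSO replicate 3, which had the lowest ATP7A level of its group, the DMSO difference was 0.42 (adjusted p = 0.0017).

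Bortezomib lowered ATP7A in control cells (log2 fold change -0.44 ± 0.140, adjusted p = 0.0042), where the nearest libraries of the 2 groups were 8.24 CPM with bortezomib and 8.08 CPM with DMSO, so the groups overlapped. The call was lost without control DMSO replicate 1 (-0.30, adjusted p = 0.071) and the change was -0.59 without replicate 3. In Lo19S cells the log2 fold change was -0.061, with an approximate 95% interval of -0.28 to 0.16 (adjusted p = 0.624). The 2 responses differed by 0.38 ± 0.179, which was not called (adjusted p = 0.116), but became 0.53 and was called without control DMSO replicate 3 (adjusted p = 0.0090). It was 0.24 without control DMSO replicate 1 (adjusted p = 0.388), and 0.47 and called with library totals (adjusted p = 0.0404).

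ATP7B (ENSG00000123191) encodes the second copper ATPase, known for copper excretion from the liver and mutated in Wilson disease. It had 6.81, 6.0 and 8.44 CPM in Lo19S bortezomib libraries and 7.82, 8.91 and 7.62 CPM in control bortezomib libraries. With DMSO it had 11, 12.6 and 11 CPM in Lo19S cells and 12, 11.5 and 12 CPM in control cells. All 6 bortezomib libraries lay below all 6 DMSO libraries, while the 2 states overlapped within each agent. ATP7B fell with bortezomib 1.57-fold in Lo19S cells (log2 fold change -0.65 ± 0.130, adjusted p = 1.53e-05) and 1.46-fold in control cells (-0.54 ± 0.129, adjusted p = 0.00018). The response did not differ between the states beyond its error (difference -0.11, approximate 95% interval -0.47 to 0.26).

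The 2 ATPases stood in different proportion to each other in the 4 groups, which was compared within each library, where scaling cancels. The count ratio of ATP7B to ATP7A was 0.477, 0.426 and 0.526 in Lo19S bortezomib, 1, 1.08 and 1.03 in control bortezomib, 0.747, 0.798 and 0.653 in Lo19S DMSO, and 0.982, 1.03 and 1.48 in control DMSO libraries. All 6 Lo19S libraries lay below all 6 control libraries. The mean log2 ratio was lower in Lo19S than in control cells, with a difference of -0.89 over both agents (exact permutation test within agents, two-sided, adjusted p = 0.0133 over 8 ratio tests, unadjusted p = 0.005, the smallest that 400 arrangements allow). With bortezomib against DMSO the difference was -0.38 and was not called (exact permutation test within states, adjusted p = 0.0533). The ratio is one of counts, and it compares groups and not the abundance of the 2 proteins.

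ATOX1 (ENSG00000177556) is the small chaperone that hands copper to both ATPases. Its level was 77.4, 77.8 and 68.2 CPM in Lo19S bortezomib and 56.2, 56.1 and 59.9 CPM in control bortezomib libraries, and 77.8, 74.9 and 80.5 CPM in Lo19S DMSO and 66.7, 62.9 and 73.2 CPM in control DMSO libraries. Lo19S and control libraries did not overlap under either agent. ATOX1 was higher in Lo19S cells by 0.36 ± 0.063 on the log2 scale under bortezomib (adjusted p = 5.99e-06) and by 0.20 ± 0.057 under DMSO (adjusted p = 0.0071), the second of which was lost without control DMSO replicate 2 (adjusted p = 0.0702). Bortezomib lowered it in control cells (-0.24 ± 0.062, adjusted p = 0.00069). In Lo19S cells the log2 fold change was -0.074 (approximate 95% interval -0.19 to 0.041), but -0.36 and called when libraries were scaled by their totals. The difference of the responses was 0.16 and was not called. It was called with library totals (0.25, adjusted p = 0.0189) and without Lo19S bortezomib replicate 3 (0.24, adjusted p = 0.0485), but without no other single library.

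CCS (ENSG00000173992) is the chaperone that loads copper into SOD1. It had 52.2, 53.8 and 50.2 CPM in Lo19S bortezomib, 45.6, 44.4 and 42.0 CPM in control bortezomib, 39.8, 41.6 and 44.1 CPM in Lo19S DMSO, and 34.4, 31.8 and 37.9 CPM in control DMSO libraries. Under each agent the Lo19S libraries were all above the control libraries, and in each state the bortezomib group was above the DMSO group. CCS was 1.18-fold higher in Lo19S cells under bortezomib (log2 fold change 0.24 ± 0.069, adjusted p = 0.0043) and 1.20-fold higher under DMSO (0.27 ± 0.068, adjusted p = 0.0025). The bortezomib changes were 0.31 ± 0.066 in Lo19S cells (adjusted p = 3.91e-05) and 0.34 ± 0.071 in control cells (adjusted p = 2.34e-05). They rest on the scaling: with library totals they were 0.025 (adjusted p = 0.741) in Lo19S cells and -0.039 (adjusted p = 0.618) in control cells.

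SOD1 (ENSG00000142168), the copper-zinc superoxide dismutase that removes superoxide in the cytosol, showed the largest rise of the 10 genes in control cells. It had 963, 875 and 901 CPM in Lo19S bortezomib and 1243, 1251 and 1205 CPM in control bortezomib libraries, against 377, 374 and 384 CPM in Lo19S DMSO and 267, 277 and 257 CPM in control DMSO libraries. No groups overlapped, and the order of the states turned round with the agent: Lo19S cells were above control cells under DMSO and below them under bortezomib. Bortezomib raised SOD1 by a log2 fold change of 1.27 ± 0.036, or 2.42-fold, in Lo19S cells (adjusted p = 1.38e-33) and by 2.21 ± 0.037, or 4.62-fold, in control cells (adjusted p = 1.99e-43). The response was smaller in Lo19S cells (difference of log2 fold changes -0.93 ± 0.050, adjusted p = 2.82e-20). SOD1 was 1.35-fold lower in Lo19S cells under bortezomib (log2 fold change -0.43 ± 0.034, adjusted p = 7.03e-15) and 1.42-fold higher under DMSO (0.50 ± 0.037, adjusted p = 1.29e-15). All 5 SOD1 results kept their direction and their call in every alternative analysis.

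Per kilobase of exon, SOD1 had the highest level of the 10 genes in each group, at 452 CPM per kilobase in Lo19S bortezomib, 611 in control bortezomib, 187 in Lo19S DMSO and 132 in control DMSO cells. It ranked first among the 10 genes with the union of annotated exons as the length, and among the 9 other than ATP7B with the principal transcript as the length, which was not used for ATP7B. The order of the other genes depended on that choice. ATOX1, for example, had 12.9 CPM per kilobase in control DMSO cells over its 5239 bases of exon union and 139 CPM per kilobase over the 488 bases of its principal transcript.

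CCS and its client SOD1 moved by unequal amounts. Their count ratio was 0.0543, 0.0616 and 0.0558 in Lo19S bortezomib and 0.0367, 0.0356 and 0.0349 in control bortezomib libraries, against 0.106, 0.111 and 0.115 in Lo19S DMSO and 0.129, 0.115 and 0.148 in control DMSO libraries. All 6 bortezomib libraries lay below all 6 DMSO libraries. The mean log2 ratio of CCS to SOD1 was lower with bortezomib than with DMSO, with a difference of -1.41 over both states (exact permutation test, two-sided, adjusted p = 0.0133). Between the states it differed by 0.68 under bortezomib and by -0.23 under DMSO, and the average over both agents was not called (0.22, exact permutation test, adjusted p = 0.206). For the importers, the ratio of SLC31A2 to SLC31A1 was lower with bortezomib than with DMSO (difference of mean log2 ratios -0.55, exact permutation test, adjusted p = 0.0133). It was higher in Lo19S than in control cells by 0.26 (exact permutation test, adjusted p = 0.016), a call that was lost without any 1 of the 3 control bortezomib libraries, each time at an adjusted p of 0.06 or 0.067. That value averages a difference of 0.42 under bortezomib and of 0.093 under DMSO, where the libraries of the 2 states overlapped.

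**Figure D2:**
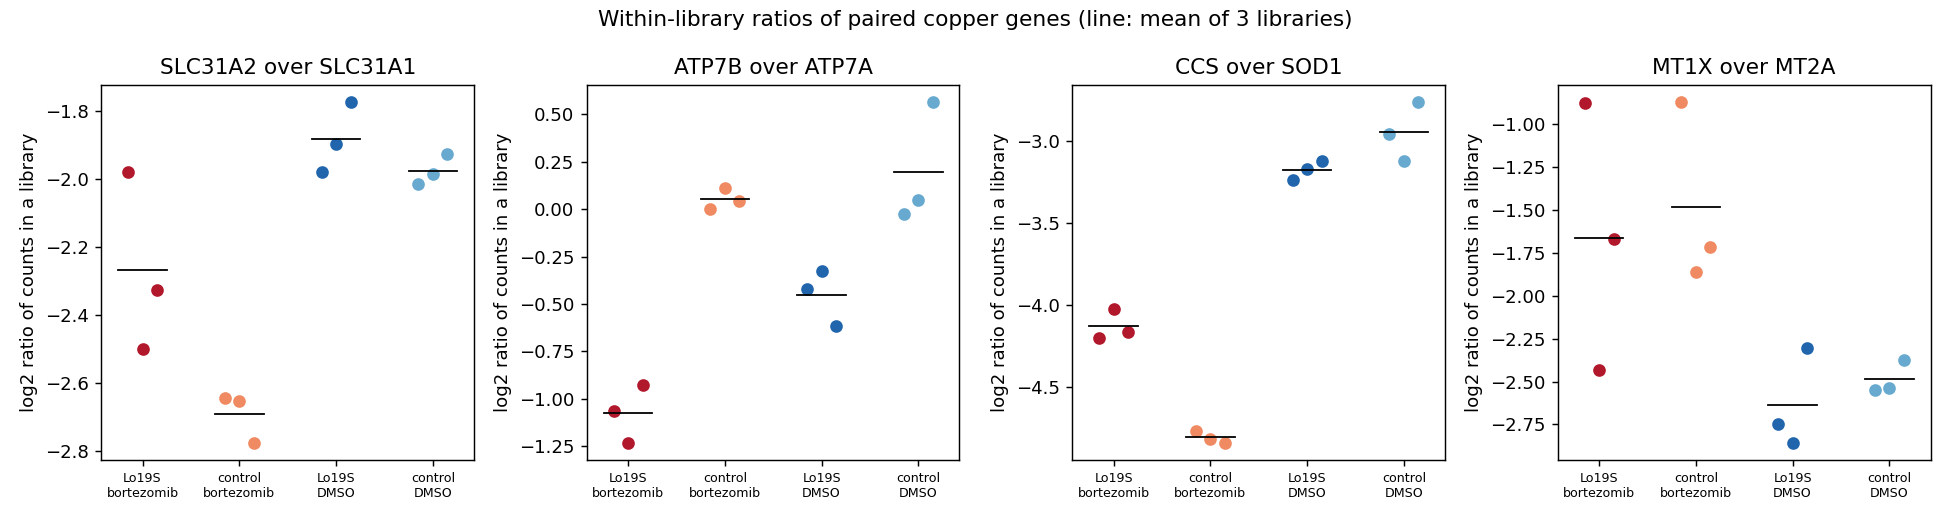
Within-library log2 ratio of counts (y axis, 0.5 added to each count) for 4 pairs of copper genes in the Lo19S bortezomib, control bortezomib, Lo19S DMSO and control DMSO groups (x axis). Points are libraries and lines are means of 3. ATP7B over ATP7A was lower in the 6 Lo19S libraries, and CCS over SOD1 was lower in the 6 bortezomib libraries.

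MTF1 (ENSG00000188786) encodes the zinc-sensing transcription factor that binds metal response elements. Its level was 106, 100.4 and 98.9 CPM in Lo19S bortezomib and 124, 119 and 127 CPM in control bortezomib libraries, against 43.4, 40.6 and 36.1 CPM in Lo19S DMSO and 39.3, 42.4 and 42.6 CPM in control DMSO libraries. The bortezomib libraries were all above the DMSO libraries, and the states overlapped under DMSO but not under bortezomib. MTF1 rose with bortezomib by 1.33 ± 0.059 on the log2 scale, or 2.52-fold, in Lo19S cells (adjusted p = 2.33e-25) and by 1.57 ± 0.058, or 2.98-fold, in control cells (adjusted p = 6.56e-29). It was lower in Lo19S cells under bortezomib (log2 fold change -0.28 ± 0.053, adjusted p = 2.26e-05). Under DMSO the log2 fold change was -0.037 (approximate 95% interval -0.16 to 0.092). The response was smaller in Lo19S cells (difference -0.24 ± 0.084, adjusted p = 0.0259), but DESeq2 gave an adjusted p of 0.0678 and scaling by library totals one of 0.183.

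MT2A (ENSG00000125148) and MT1X (ENSG00000187193) were the metallothioneins with enough counts to test. MT2A is the most widely expressed metallothionein gene of human cells. It had 4.66, 5.85 and 3.75 CPM in Lo19S bortezomib and 3.18, 3.79 and 4.05 CPM in control bortezomib libraries, against 10.9, 10.2 and 9.19 CPM in Lo19S DMSO and 12.5, 13.2 and 13.7 CPM in control DMSO libraries. All bortezomib libraries lay below all DMSO libraries, and Lo19S lay below control under DMSO, while the states overlapped under bortezomib. These levels rest on 39 to 52, 26 to 34, 86 to 137 and 142 to 166 counts per library in the same 4 groups.

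MT2A fell with bortezomib 2.24-fold in Lo19S cells (log2 fold change -1.17 ± 0.150, adjusted p = 1.71e-09) and 3.56-fold in control cells (-1.83 ± 0.154, adjusted p = 4.14e-15). The fall was smaller in Lo19S cells (difference 0.67 ± 0.229, adjusted p = 0.0244), which DESeq2 did not call (adjusted p = 0.0709). Under DMSO, MT2A was 1.29-fold lower in Lo19S than in control cells (log2 fold change -0.36 ± 0.116, adjusted p = 0.0158). That call was lost in DESeq2 (adjusted p = 0.133) and without Lo19S DMSO replicate 3 (adjusted p = 0.0833). Under bortezomib the difference was 0.30, with an approximate 95% interval of -0.087 to 0.69 (adjusted p = 0.225).

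MT1X was near the limit of the depth, with 7 to 21 counts per library in Lo19S bortezomib, 9 to 14 in control bortezomib, 16 to 20 in Lo19S DMSO and 24 to 28 in control DMSO cells. Its level was 2.51, 1.02 and 1.15 CPM in Lo19S bortezomib and 1.71, 1.0 and 1.19 CPM in control bortezomib libraries, against 1.59, 1.38 and 1.82 CPM in Lo19S DMSO and 2.12, 2.23 and 2.60 CPM in control DMSO libraries. MT1X fell with bortezomib in control cells (log2 fold change -0.83 ± 0.311, adjusted p = 0.0137), a call lost in DESeq2 (adjusted p = 0.0906) and without control bortezomib replicate 2 (adjusted p = 0.0796). In Lo19S cells a change was not detectable at this depth (log2 fold change -0.057, approximate 95% interval -0.68 to 0.56), with replicate 1 of the bortezomib group above and the others below all 3 DMSO libraries. Under DMSO the Lo19S libraries all lay below the control libraries, but the difference was not called (log2 fold change -0.54 ± 0.277, adjusted p = 0.159), and under bortezomib it was 0.23 with an approximate 95% interval of -0.46 to 0.92. The count ratio of MT1X to MT2A was higher with bortezomib by 0.99 on the log2 scale (exact permutation test, two-sided, adjusted p = 0.016). The agents overlapped in this ratio, with 0.185 in Lo19S bortezomib replicate 2 beside 0.138 to 0.202 in the DMSO libraries.

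Other metallothionein genes had few or no counts. Of 10 listed, MT1A, MT1B, MT1E, MT1G, MT1H, MT1L, MT1M, MT3 and MT4 were listed at 0 counts in all 12 libraries, where a count of 0 allows up to 3 counts, or 0.216 to 0.439 CPM depending on the library. MT1F had 37 counts in all and at most 0.688 CPM. Metallothionein genes are close copies of each other, and how reads that match several genes were treated is not given in the sources at hand, so the split of counts among them is uncertain. The floor does not cover reads left out in counting, so a count of 0 does not show that a gene was silent.

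MTF1 RNA and MT2A RNA stood in opposite order across the agents. MT1X overlapped between the agents, at 1.0 to 2.51 CPM in bortezomib and 1.38 to 2.60 CPM in DMSO libraries. The 6 bortezomib libraries had 98.9 to 127 CPM of MTF1 and 3.18 to 5.85 CPM of MT2A, and the 6 DMSO libraries had 36.1 to 43.4 CPM of MTF1 and 9.19 to 13.7 CPM of MT2A. SLC30A1, the zinc exporter of the plasma membrane and another gene that MTF1 is known to activate, is named here after its values were seen. It rose with bortezomib by 0.37 ± 0.076 in Lo19S cells (adjusted p = 3.2e-05) and by 0.23 ± 0.073 in control cells (adjusted p = 0.0041), both on the log2 scale. Both calls rest on the scaling: with library totals SLC30A1 was at 0.077 in Lo19S cells (adjusted p = 0.354) and at -0.15 in control cells (adjusted p = 0.052). RNA levels of MTF1 do not measure its protein or its activity, which were not analysed here.

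**Figure D3:**
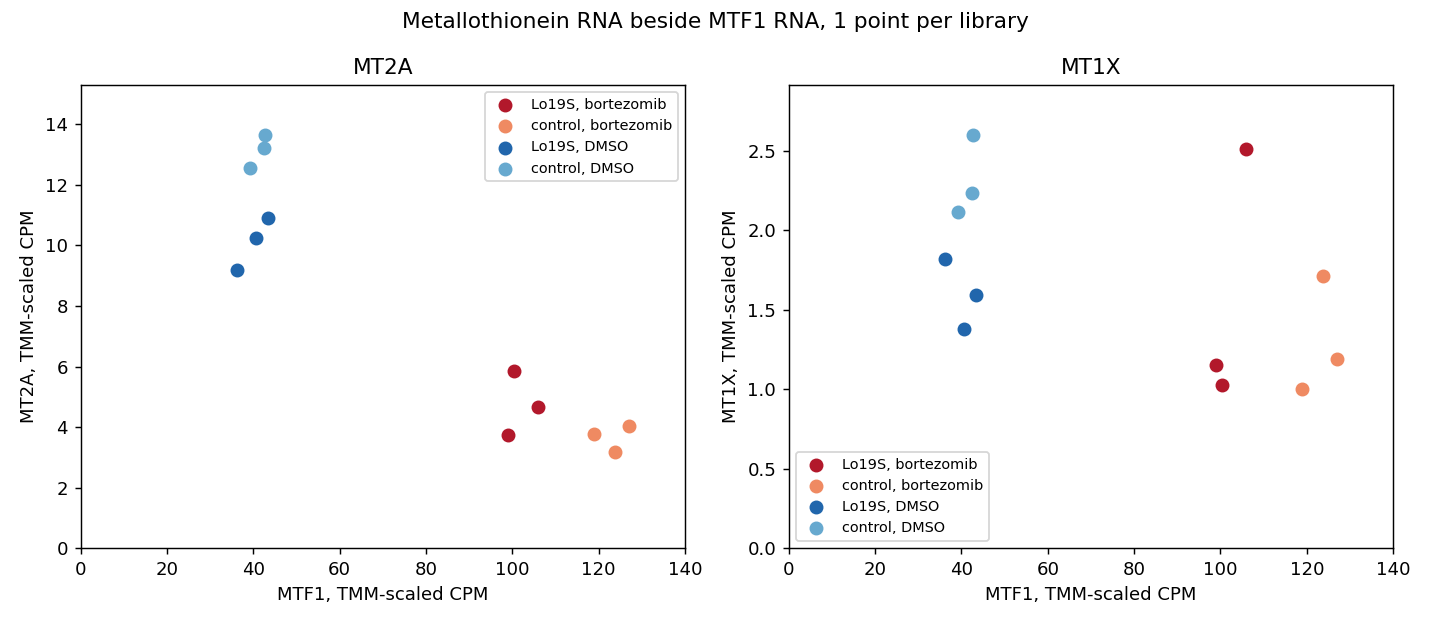
MT2A (left) and MT1X (right) level against MTF1 level, both in TMM-scaled CPM, with 1 point per library coloured by group. The 6 bortezomib libraries sit at 98.9 to 127 CPM of MTF1 and at most 5.85 CPM of MT2A, and the 6 DMSO libraries at 36.1 to 43.4 CPM of MTF1 and at least 9.19 CPM of MT2A. MT1X overlaps between the agents, at 1.0 to 2.51 CPM with bortezomib and 1.38 to 2.60 CPM with DMSO.

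The promoters of MT2A and MT1X are shown because metal response elements are the known sites of MTF1. The sequences are the 250 bases before the RefSeq start of each gene on the plus strand of GRCh38.p14, at chr16:56608334-56608583 for MT2A and chr16:56682220-56682469 for MT1X, printed 5′ to 3′ with each match to the metal response element core in capitals on either strand.
MT2A: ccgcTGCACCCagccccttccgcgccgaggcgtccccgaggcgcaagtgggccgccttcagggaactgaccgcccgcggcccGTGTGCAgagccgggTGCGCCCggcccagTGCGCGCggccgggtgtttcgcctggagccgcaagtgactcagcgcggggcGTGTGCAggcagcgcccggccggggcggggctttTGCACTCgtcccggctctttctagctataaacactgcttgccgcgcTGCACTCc
MT1X: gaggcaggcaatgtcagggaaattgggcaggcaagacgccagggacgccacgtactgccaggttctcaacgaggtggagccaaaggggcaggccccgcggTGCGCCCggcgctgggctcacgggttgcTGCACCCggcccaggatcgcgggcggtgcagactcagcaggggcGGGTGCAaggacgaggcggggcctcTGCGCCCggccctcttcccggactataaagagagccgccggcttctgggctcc
The core was searched as TGCACNC or TGCGCNC on both strands. MT2A held 7 matches, from 246 to 8 bases before the start, and MT1X held 4, from 150 to 53 bases before it. Of 35093 promoters of the same length in the RefSeq table, 24.8% held at least 1 match and 0.12% held 5 or more. A promoter was found for 8 of the 10 genes. ATOX1 and CCS held 2 matches each, on opposite strands 1 base apart, so that they overlap, and SLC31A1, ATP7A and MTF1 held none. ATP7B had 3 annotated starts, of which 1 held 2 matches. A search for the antioxidant response element core TGACNNNGC, whose matches were present in 10.9% of all promoters, found 1 each in MT2A, MT1X and CCS. The heat shock element core GAANNTTC or TTCNNGAA, present in 11.6% of all promoters, matched once, at 1 of the ATP7B starts. A match is a description of the letters and not of binding.

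**Figure D4:**
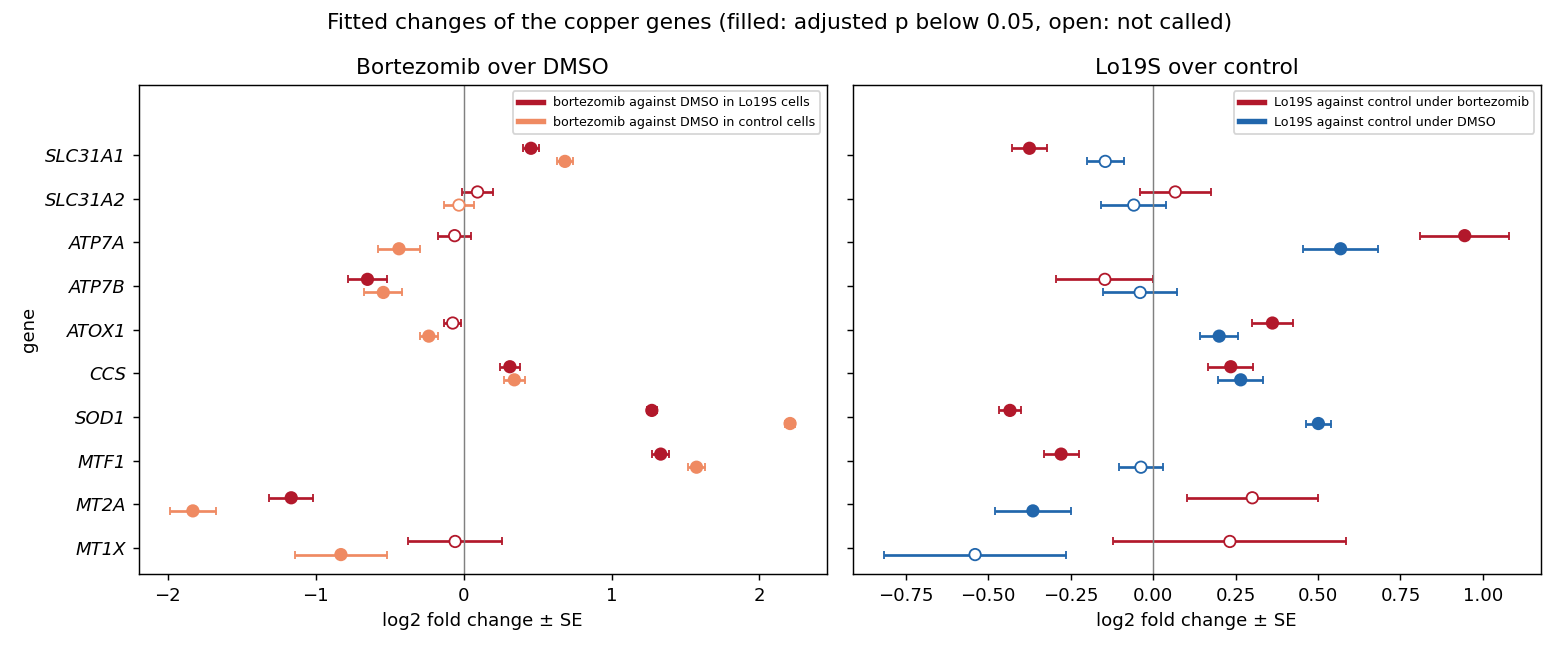
Log2 fold change (x axis) with its SE for each copper gene (y axis), for bortezomib over DMSO in Lo19S and in control cells (left) and for Lo19S over control cells under bortezomib and under DMSO (right). Filled points were called at an adjusted p below 0.05. SOD1 is at 1.27 and 2.21 for bortezomib, and changes side between -0.43 under bortezomib and 0.50 under DMSO for the state.

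The bortezomib directions were checked under another scaling, because the TMM factors differed between the agents. With library totals in place of TMM factors, the median log2 fold change of all genes was -0.31 for bortezomib in Lo19S cells and -0.42 in control cells. The share of called genes that were higher was then 32.0% instead of 48.7% in Lo19S cells and 30.5% instead of 48.1% in control cells. It was 72.3% instead of 50.9% for Lo19S against control cells under bortezomib, where the median was 0.11, and 72.6% instead of 51.9% for the difference of the responses, where the median was 0.10. Under library totals SOD1, MTF1 and SLC31A1 were still called higher and ATP7B and MT2A still called lower with bortezomib in both states. The log2 fold changes were 0.98 in Lo19S cells and 1.83 in control cells for SOD1, and 1.04 in Lo19S cells and 1.19 in control cells for MTF1. For SLC31A1 they were 0.17 in Lo19S cells and 0.30 in control cells. CCS lost its rise in both states, ATP7A and ATOX1 were called lower in Lo19S cells as well, and SLC31A2 was called lower in control cells, so that 3 copper genes were called higher and 4 lower in Lo19S cells, and 3 higher and 6 lower in control cells.

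**Figure D5:**
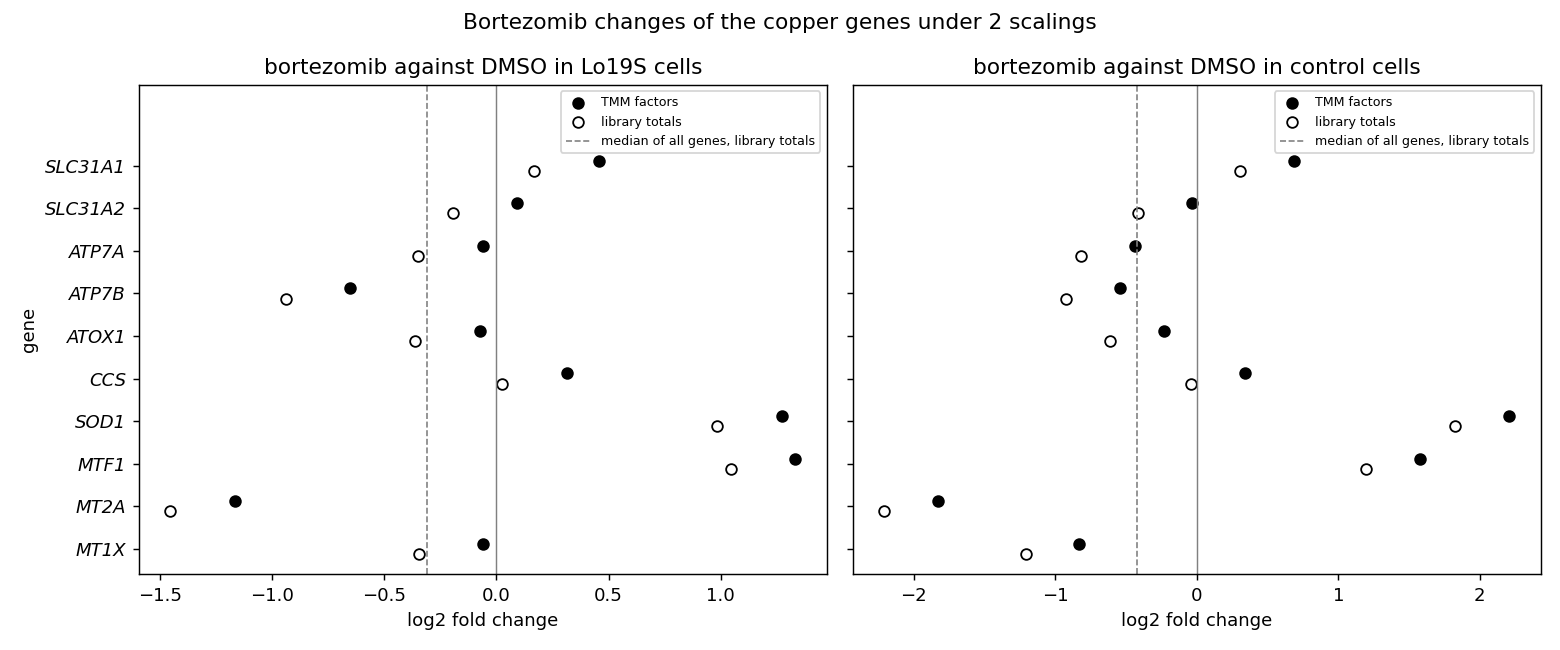
Bortezomib log2 fold change (x axis) of each copper gene (y axis) in Lo19S cells (left) and control cells (right), with TMM factors (filled) and with library totals (open). The dashed line is the median of all genes with library totals, at -0.31 in Lo19S cells and -0.42 in control cells, and CCS is the gene whose called rise ends at 0.025 and -0.039.

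Genes that deliver copper inside mitochondria, to cytochrome c oxidase, were measured for 9 of 10 listed, and SCO2 was not analysed here. With bortezomib, 3 rose and 3 fell in Lo19S cells, and 3 rose and 4 fell in control cells, beside 77.5% of all genes called in Lo19S cells and 81.4% in control cells. COX19, an assembly factor of cytochrome c oxidase, rose by 1.07 ± 0.072 in Lo19S cells (adjusted p = 2.31e-18) and by 1.53 ± 0.068 in control cells (adjusted p = 1.49e-25). COA5, another assembly factor, fell by 0.77 in Lo19S cells and by 1.10 in control cells. CMC1 fell by 0.82 in control cells, with a difference of the responses, Lo19S minus control, of 0.47. Of the 9, CMC2 was called lower in Lo19S than in control cells under DMSO, beside 24.7% of all genes called. Under bortezomib 3 were higher and 2 lower, beside 43.1% of all genes. The bortezomib response differed between the states for 8 of the 9, positively for 5 and negatively for 3, beside 27.8% of all genes. Under library totals the bortezomib counts were 1 higher and 5 lower in Lo19S cells and 2 higher and 7 lower in control cells. With that scaling 5 were higher and 1 lower both for the difference of the responses and for Lo19S against control cells under bortezomib. Of all genes called with that scaling, 72.6% and 72.3% were higher in these 2 comparisons.

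Of 16 other copper-dependent enzymes, 6 had enough counts to test. In Lo19S cells bortezomib raised 1 and lowered 3, beside 77.5% of all genes called, and in control cells it raised 3 and lowered 3, beside 81.4%, with the same counts under library totals. PAM, which amidates secreted peptides and had the highest counts of the 6, was at 151 CPM in Lo19S bortezomib, against 99.3 CPM in Lo19S DMSO cells (log2 fold change 0.61 ± 0.044, adjusted p = 3.74e-17). It was at 140 CPM in control bortezomib, against 94.5 CPM in control DMSO cells (0.56 ± 0.045, adjusted p = 7.81e-16), and is named here after its values were seen. With library totals its changes were 0.32 in Lo19S cells and 0.18 in control cells, both still called. SOD3, the secreted superoxide dismutase, fell by 0.78 ± 0.101 in Lo19S cells (adjusted p = 9.43e-09) and by 0.59 ± 0.097 in control cells (adjusted p = 1.06e-06), the opposite direction from SOD1. LOXL3, of the lysyl oxidase family, whose members cross-link collagen, was lower in Lo19S than in control cells under bortezomib (log2 fold change -1.01 ± 0.179, adjusted p = 6.85e-06). The lysyl oxidase LOX fell by 1.90 ± 0.415 with bortezomib in control cells (adjusted p = 5.56e-05), at 0.468 CPM with bortezomib and 1.81 CPM with DMSO. In Lo19S cells LOX fell by 2.64 ± 0.558 (adjusted p = 3.92e-05), at 0.185 CPM with bortezomib and 1.16 CPM with DMSO. Under DMSO none of the 6 was called between the states by edgeR's quasi-likelihood test, beside 24.7% of all genes.

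Among 15 metalloreductases and copper-linked regulators, all measured, bortezomib raised 7 and lowered 6 in Lo19S cells and raised 7 and lowered 5 in control cells, beside 77.5% of all genes called in Lo19S cells and 81.4% in control cells. Under library totals the counts were 5 higher and 7 lower in Lo19S cells and 4 higher and 8 lower in control cells. PRNP, the copper-binding prion protein, was at 306 CPM in Lo19S bortezomib, against 77.4 CPM in Lo19S DMSO cells (log2 fold change 1.98 ± 0.043, adjusted p = 5.49e-38). It was at 365 CPM in control bortezomib, against 79.4 CPM in control DMSO cells (2.20 ± 0.043, adjusted p = 2.02e-40). CYBRD1, a reductase that can act on iron and copper, fell by 1.74 ± 0.096 in Lo19S cells and by 1.69 ± 0.095 in control cells. STEAP4, a metalloreductase of iron and copper, had 0 counts in the 3 Lo19S bortezomib libraries, against 97 in the Lo19S DMSO libraries. That is at least 28.0-fold lower against a floor of 3 counts over the group. It had 2 counts in control bortezomib, against 80 in control DMSO libraries, a ratio of 0.034 with an exact 95% counting interval of 0.0040 to 0.127. Between the states under DMSO, GLRX, a glutaredoxin known to act on the copper ATPases, was 1.06 ± 0.153 higher on the log2 scale in Lo19S cells (adjusted p = 2.98e-07). STEAP3, a ferrireductase, and APP, a copper-binding precursor protein, were lower, with log2 fold changes of -0.47 and -0.16. CUTC, a copper-binding protein, was higher in Lo19S cells under bortezomib (log2 fold change 0.47 ± 0.071, adjusted p = 3.3e-07).

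Zinc transporters were listed because metallothioneins and MTF1 also handle zinc, and 18 of 24 were measured. With bortezomib, 6 rose and 9 fell in Lo19S cells, beside 77.5% of all genes called, and 5 rose and 9 fell in control cells, beside 81.4%. The median log2 fold change was -0.19 in Lo19S cells and -0.14 in control cells, beside -0.022 and -0.043 over all genes. Under library totals the counts were 2 higher and 11 lower in Lo19S cells and 2 higher and 14 lower in control cells. SLC39A14, an importer of zinc and other metals, rose by 1.09 ± 0.052 in Lo19S cells and by 1.20 ± 0.050 in control cells. SLC30A7, which moves zinc into the Golgi, rose by 0.98 ± 0.064 in Lo19S cells (adjusted p = 6.24e-19) and by 0.98 in control cells. The zinc importer SLC39A10 fell by 1.02 ± 0.102 in Lo19S cells and by 1.06 ± 0.112 in control cells. SLC39A11 fell by 1.23 ± 0.083 in control cells, with a difference of the responses, Lo19S minus control, of 0.36. Under DMSO, 1 was higher and 3 lower in Lo19S than in control cells, beside 24.7% of all genes called. SLC30A1 was among the lower (log2 fold change -0.30 ± 0.074, adjusted p = 0.0016).

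For each copper gene, the genes with the most similar pattern over the 12 libraries were found by the root-mean-square difference of log2 CPM after centring. This is a description of likeness, and the libraries share their groups. SOD1 was closest to RIT1 (0.0706), EXOC8 (0.0964) and BLOC1S2 (0.0971), where the median over all genes was 0.948. RIT1 averaged 162 CPM in Lo19S bortezomib and 207 CPM in control bortezomib, against 61.5 CPM in Lo19S DMSO and 44.9 CPM in control DMSO cells. MTF1 was closest to CENATAC (0.0743), ADPGK (0.0817) and PPP2CB (0.0824), with a median over all genes of 0.800. MT2A was closest to CDC25B (0.134), TTK (0.139) and GRIK4 (0.141), with a median of 0.790. CDC25B averaged 32.2 CPM in Lo19S bortezomib and 26.6 CPM in control bortezomib, against 76.7 CPM in Lo19S DMSO and 97.8 CPM in control DMSO cells.

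ATP7A was closest to NUDT12 (0.110), which averaged 75.1 CPM in Lo19S bortezomib and 41.3 CPM in control bortezomib, against 79.3 CPM in Lo19S DMSO and 57.1 CPM in control DMSO cells, and then to FAM161B (0.130) and NEBL (0.162). The median over all genes was 0.592 for ATP7A. ATP7B was closest to CNOT6L (0.0738), AMER1 (0.0941) and NDOR1 (0.0994), and SLC31A1 to PNP (0.0558), HNRNPA1 (0.0571) and KANSL2 (0.0580). ATOX1 was closest to RPS6KA1 (0.0669), TKT (0.0702) and PKM (0.0719), and CCS to MAN2C1 (0.0558), CLCN6 (0.0600) and WDR91 (0.0623). SLC31A2, whose log2 level ranged over only 0.525 in the 12 libraries, was closest to SPINT2 (0.0861), SFXN4 (0.0864) and COX7A2 (0.0928). MT1X, at its low counts, had no gene nearer than MRPL36 (0.243), followed by an identifier without a symbol (0.256) and ST6GALNAC4 (0.259).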

How the data were processed

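Polyadenylated RNA of 12 T47D libraries was analysed in 4 groups of 3, taken from the sample labels. The deposited files hold raw whole-number counts per gene, 1 file per library. The submitters' processing notes name STAR 2.5.4b, featureCounts 1.6.1 and build GRCh37. Per the labels' protocols a stranded polyA kit was used. How strand and multi-mapping reads were handled in counting is not given in the sources used here. Of 57773 Ensembl identifiers, 51996 were matched to a symbol.

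Counts were filtered with filterByExpr by group (14714 genes), scaled with TMM factors, and fitted with 1 coefficient per group by edgeR 4.0.16 (R 4.3.3, robust quasi-likelihood test, tested on simulated data). The 5 comparisons were each state effect, each bortezomib effect and the difference of the responses, with Benjamini-Hochberg adjustment over all genes and a threshold of 0.05. The SE was derived from the fold change and the F statistic, and is approximate. Levels of groups use n = 3. Within-library log2 ratios, with 0.5 added to each count, were compared by exact stratified permutation. Likeness used log2 CPM with a prior count of 2. A count of 0 allows up to 3 counts; floors and counting intervals cover only counting error, because PCR copies were not marked by molecular identifiers. Lengths came from GENCODE and promoters from RefSeq (GRCh38.p14); no other coordinates are given.

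Alternatives were DESeq2 1.42.0, RLE size factors, library totals, no filter on low counts, the replicate number as a block, no robust option, only the 2 groups compared, a ratio pseudocount of 5, and leaving out each library in turn. The text names the 10 copper genes, per comparison up to 3 called genes with the largest changes in each other list, and for each copper gene the 3 genes most like it. The members and lists were chosen with earlier results of these data known.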

Additional observations from a re-analysis of the deposited data

Results flagged for a closer look

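The bortezomib response of 4 of the 10 copper genes differed between Lo19S and control cells, beside 27.8% of all genes. These calls are from the test of the difference itself (edgeR's quasi-likelihood test, Benjamini-Hochberg adjustment over all genes). The difference of log2 fold changes, Lo19S minus control, was -0.93 for SOD1 (adjusted p = 2.82e-20), with a response of 1.27 in Lo19S cells and 2.21 in control cells. It was -0.23 for SLC31A1 (adjusted p = 0.0213) and -0.24 for MTF1 (adjusted p = 0.0259), each with a smaller rise in Lo19S cells. It was 0.67 for MT2A (adjusted p = 0.0244), with a fall of 1.17 in Lo19S cells and 1.83 in control cells. The SLC31A1, MTF1 and MT2A differences were each lost in DESeq2. They were also lost in 4, 7 and 3, in that order, of the 12 fits that left out a single library. The causes of these differences were not tested.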

How the results depend on the processing

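Of 939 recomputed fold changes of single copper genes, 880 kept their direction and side of the threshold. With the same sign, 28 lost a call and 14 gained one. Another 17 changed sign, most of them near 0. Among these, CCS for bortezomib in control cells also lost its call, with library totals. The count of copper genes called for the difference of the responses was 4 in the analysis as reported, 1 with DESeq2, 2 without the filter on low counts and 1 to 5 when single libraries were left out, with 1 without control bortezomib replicate 1. The other counts of copper genes called stayed within 1.5 times, at 4 to 6 for Lo19S against control cells under DMSO and 8 to 9 for bortezomib in control cells when single libraries were left out. Without control DMSO replicate 3, 4603 of 14981 genes were called for Lo19S against control cells under DMSO, instead of 3628 of 14714. For the difference of the responses it was 4981 instead of 4094. The background shares given for these 2 comparisons include that library. With library totals, CCS turned to -0.039 for bortezomib in control cells and 0.063 for the difference of the responses, and SLC31A2 to -0.19 for bortezomib in Lo19S cells. With this scaling the median of all genes had moved down for bortezomib in both states. It had moved up, from 0.010 to 0.10, for the difference of the responses. Leaving out single libraries moved uncalled log2 values across 0. The ranges were -0.091 to 0.027 for the CCS difference of responses, -0.065 to 0.011 for SLC31A2 with bortezomib in control cells, and -0.10 to 0.024 for MTF1 in Lo19S cells under DMSO. They were -0.50 to 0.22 for MT1X and -0.041 to 0.20 for SLC31A2 with bortezomib in Lo19S cells, and -0.10 to 0.0032 for ATOX1 there. Under bortezomib, Lo19S against control, they were -0.071 to 0.15 for SLC31A2 and -0.22 to 0.50 for MT1X, and -0.011 to 0.21 for the SLC31A2 difference of responses. The log2 ratio of SLC31A2 to SLC31A1 between the states ranged from 0.19 to 0.32, that of ATP7B to ATP7A with bortezomib from -0.44 to -0.29, and that of MT1X to MT2A between the states from -0.36 to 0.029. The last 2 were not called as reported, and ATP7B over ATP7A was called without control DMSO replicate 1 or 2 (adjusted p = 0.02 and 0.0333).

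Replicate numbers gave no pairing: of 18 pairs of libraries with the same number in different groups, 0 had a correlation of deviations above 0.1 (range -0.072 to 0.026), and 3 of 12 libraries correlated best with their own number. With the replicate number as a block, 5, 9, 6, 6 and 4 copper genes were called in the 5 comparisons, the same counts as without it, and 3445 genes were called for Lo19S against control cells under DMSO. Depth limits MT1X, with 7 to 28 counts per library. The 10 other metallothioneins had too few counts for changes to be tested. Counts of MT2A fell to 26 in a library.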
